A study of Mus musculus with 4 samples.

Results

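The genes described here encode the proteases of the lysosome (cathepsins), their inhibitors (cystatins and stefins), the subunits of the vacuolar proton pump and 2 proteins of the lysosomal membrane. Members were all probe sets naming a single gene whose symbol marks it as a cathepsin (Cts), a cystatin or stefin (Cst) or a subunit of the pump (Atp6v, Atp6ap), together with Lamp1 and Lamp2. They came to 55 genes with 99 probe sets, of 18194 genes measured. Ctsk and Atp6v0d2, both known from osteoclasts, were left out of the set, and Cd63, Atp6v0c, Atp6v1g3 and Cst8 were not analysed here. RNA had been extracted from molar teeth of 60 Swiss Webster pups of both sexes, aged 1 to 10 days and given no treatment, as 1 pool, and measured on 4 Affymetrix Mouse Genome 430 2.0 arrays, on which a set of short oligonucleotide probes reports each transcript. The 4 arrays form 1 group with no control samples, and they share 1 RNA pool, so each SD is technical and each p-value measures only that spread. Because ages and cell types were pooled, more cells of a type and more RNA per cell cannot be told apart.

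Lysosomes are acidic compartments in which cells break down material taken up from outside or delivered by autophagy. The vacuolar proton pump acidifies them by a rotary mechanism: its cytosolic V1 part splits ATP and turns the membrane-bound V0 part, which carries protons across the membrane. Most lysosomal cathepsins mature and work best in this acid, and cystatins inhibit the cysteine cathepsins that escape or are secreted. In growing teeth, maturing ameloblasts take up and degrade fragments of enamel protein, odontoblasts and fibroblasts turn over collagen, and osteoclasts use the same pump to dissolve the bone around the erupting crown.

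Signals are in the arbitrary units of MAS5, the array maker's summary of matched and mismatched probes, on a linear scale. A threshold was set on each array at the 95th percentile of 86 probe sets for receptor genes of smell, pheromone sensing and taste, whose transcripts teeth should lack. It ranged from 996 to 1295 over the arrays. A gene was called above background if any of its probe sets exceeded the threshold on all 4 arrays. Probe sets differ in how well they bind, so a signal is read against the threshold and not as an amount of mRNA against another gene's signal. The label of the tissue was checked on marker genes. All 7 ameloblast markers and all 5 odontoblast markers (Dspp, Dmp1, Col1a1, Col1a2 and Nes) were above background, against 51.6% of all genes. So were 6 of 7 markers of oral and cornified epithelium. Amelx (amelogenin, of enamel) was at 198666 ± 42644 and Dspp (of dentin) at 111371 ± 20102 (SD, n = 4).

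Of the 55 members, 32 (58.2%) were above background, against 51.6% of all genes. The share of the whole set was thus near that of the array. The members are given by classes that were drawn with earlier results of these data known, so the counts per class are a description. All 10 cathepsins of wide tissue range passed, and so did 8 of 12 genes of the pump's V1 part, 6 of 7 of its V0 part, both accessory subunits and both lysosomal membrane genes. Among the rest 3 of 10 cystatins and stefins, 1 of 3 cathepsins of blood, immune or gut cells and 0 of 9 placental cathepsins passed. By the median of a gene's probe sets, 9 of 10 cathepsins of wide range were above background, without Ctsc. The median over members of the mean log2 signal was 12.55, against 10.69 over all genes. Testing each probe set's log2 distance above the threshold with limma, one-sided and with p-values adjusted by Benjamini-Hochberg over all 45037 probe sets that are not controls, called 32 members as well, and all 32 were shared with the rule on 4 arrays. That test called 50.9% of all genes.

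Sequence upstream of the members was examined because many lysosomal genes are known to carry the CLEAR element, an E-box bound by the transcription factor TFEB, near their start. The windows were RefSeq promoters of GRCm38.p6 reaching 250 bases before and 50 bases after a gene's start, and 43 members had one. The 8-letter core TCACGTGA, which reads the same on both strands, stood in the promoters of 5 of 22 members above background (22.7%) and of 0 of 21 members not above background. Other lysosomal genes, a separate list of hydrolases, receptors and membrane proteins, had it in the promoters of 5 of 39 genes (12.8%). These were Gla, which was not above background, and Mcoln1, Clcn7, Igf2r and Gnptg, which were. Among all genes on the array it stood in 2.46% of those above background and 0.684% of those not above it. Of all 27025 genes with a promoter 1.12% had it, and of all 32851 promoters counted singly 0.974%. The following stretches of 80 bases, in the direction of transcription, show it in capitals in the 5 genes, among them 2 cathepsins and 3 pump subunits.
Ctsa: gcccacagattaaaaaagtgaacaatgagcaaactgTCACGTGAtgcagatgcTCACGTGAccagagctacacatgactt
Ctsd: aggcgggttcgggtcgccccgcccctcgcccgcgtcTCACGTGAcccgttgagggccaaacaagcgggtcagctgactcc
Atp6v1a: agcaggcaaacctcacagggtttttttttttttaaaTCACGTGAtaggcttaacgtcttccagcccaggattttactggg
Atp6v0d1: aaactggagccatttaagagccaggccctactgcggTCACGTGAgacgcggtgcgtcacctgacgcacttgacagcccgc
Atp6v0e: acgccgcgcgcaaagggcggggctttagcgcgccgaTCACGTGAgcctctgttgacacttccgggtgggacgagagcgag

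These stretches lie at chr2:164833724-164833803 on the plus strand (Ctsa), chr7:142387883-142387962 on the minus strand (Ctsd), chr16:44139348-44139427 on the minus strand (Atp6v1a), chr8:105566025-105566104 on the minus strand (Atp6v0d1) and chr17:26676362-26676441 on the plus strand (Atp6v0e). The core began 99 bases before the annotated start in Ctsd, 132 before it in Atp6v1a, 4 before it in Atp6v0d1 and 2 after it in Atp6v0e. In Ctsa it occurred at 2 places, from 13 bases before the start and from 4 after it.

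Other motifs were searched in the same windows. The E-box core CACGTG, which is contained in the 8 letters, was found for 9 of 22 members above background (40.9%), Atp6v0b, Ctsf, Ctsl and Lamp1 in addition to the 5, and for 1 of 21 not above background, Ctsll3. It was in 11 of 39 other lysosomal genes (28.2%), 12.1% of the array's genes above background and 8.16% of those not above it. Of all genes with a promoter 8.09% had it, and of all promoters 7.15%. The 10-letter CLEAR palindrome, the 8 letters with a G before and a C after them, was in none of the members' windows. It was in 1 of 39 other lysosomal genes (Igf2r, 2.56%), in 0.37% of all genes with a promoter and in 0.326% of all promoters. Among the array's genes above and not above background it was in 0.877% and 0.238%. The GC box GGGCGG, searched on both strands, was in 17 of 22 members above background (77.3%) and 3 of 21 not above (14.3%), in 29 of 39 other lysosomal genes (74.4%), and in 72.3% and 40.6% of the array's genes above and not above background. For the TATA box TATAAA the members' numbers were 2 of 22 (Atp6v1e1 and Ctss) and 6 of 21 (Cst13, Cts3, Ctsg, Ctsll3, Ctsm and Ctsq), and the array's shares 8.56% and 14.8%. GGGCGG and TATAAA were in 38.2% and 15.7% of all genes with a promoter, and in 35.7% and 13.6% of all promoters. A match describes letters in a window and was not tested for binding.

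Cathepsins of wide tissue range were above background for every gene of the class. Ctsb, a cysteine protease that cuts inside proteins and also trims dipeptides from their ends, had signals of 62908, 61008, 59777 and 65702 on arrays 1 to 4. Ctsl, a cysteine endopeptidase, had 34038, 34804, 32286 and 34336. Ctsd, the main aspartic protease of lysosomes, had 28113, 29701, 28706 and 33919. All 3 lay far over the threshold on every array, Ctsb at 46.2 to 63.2 times, Ctsl at 24.9 to 34.2 times and Ctsd at 22.2 to 28.2 times the value of the same array. Their mean log2 signal above the threshold was 5.75 ± 0.12, 4.87 ± 0.12 and 4.70 ± 0.11 (SE, n = 4), with limma adjusted p-values of 2.12e-15, 4.48e-15 and 4.02e-15. Ctsl was also the steadiest of the members above background, with a coefficient of variation of 3.25%.

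The exopeptidases of the lysosome followed. Ctsz, a carboxypeptidase, had 18317, 16615, 16769 and 12935, with the lowest value of this probe set on array 4. Its other probe sets were lowest on array 2 (5301) and on array 3 (9845). Ctsa, a serine carboxypeptidase that also protects beta-galactosidase and neuraminidase from breakdown, had 12080.4, 10875, 13113 and 11879. Ctsc removes dipeptides and thereby activates the serine proteases of immune cell granules, and in humans its loss causes early destruction of the periodontium. Its signals were 7461, 8286, 7237 and 6957, or 5.49 to 7.55 times the threshold. Ctsh, an aminopeptidase, had 3455, 3640.4, 3841 and 3335 and was the member of this class nearest to the threshold, at 2.63 to 3.47 times its value, with limma giving 1.62 ± 0.13 on the log2 scale and an adjusted p of 9.36e-09.

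The 3 remaining cysteine cathepsins of wide range were above background with less margin than Ctsb or Ctsl. Ctso had 5833, 6632, 6438 and 6090.1. Ctss, counted here with the wide class though it is best known from antigen-presenting cells, where it trims the invariant chain of MHC class II, had 5334, 5439, 4541 and 4182. Ctsf had 5384, 5689, 5285 and 7925. Array 4 was the highest for Ctsf and the lowest for Ctss, and the coefficient of variation of Ctsf, 20.6%, was the largest among members above background, where the median was 7.83%.

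Cathepsins of restricted range divided. Ctse, an aspartic protease of endosomes known from stomach, red cells and immune cells, had 6209, 5972, 5363 and 7537 and was above background by both of its probe sets, with limma at 2.43 ± 0.12 above the threshold (SE, adjusted p = 3.29e-11). Ctsw, known from cytotoxic lymphocytes, had 1819, 411, 2477 and 1450.2. It exceeded the threshold on 3 arrays and was at 0.375 times the threshold on array 2, so it was not called, and its limma adjusted p was 0.815. Ctsg, a serine protease of neutrophil granules, had 385, 159, 134 and 179 and stayed below the threshold on all 4 arrays. Other markers of these cells were mixed. Of 8 granulocyte genes 4 were above background, a share near the 51.6% of all genes. They were S100a8 at 3955 ± 395, Ngp at 3258 ± 511, S100a9 at 2213 ± 509 and Mpo at 1491 ± 165. Of 6 cytotoxic lymphocyte genes 1 was above background, below the share of all genes (Cd8a at 2559 ± 758). Elane and Prtn3, serine proteases of neutrophil granules like Ctsg, were not above background, with 327, 417, 604 and 295 for Elane and 668, 624, 824 and 772 for Prtn3, nor were Ltf and Camp, or Prf1, Gzma, Gzmb, Nkg7 and Cd3e of the lymphocyte list. Summed signals ranged from 12740 to 15069 over the arrays for the granulocyte list and from 4137 to 7762 for the lymphocyte list, and their part in the values of Ctse, Ctsg and Ctsw was not tested.

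Placental cathepsins are a rodent branch of the cathepsin L family, expressed in trophoblast cells. None of the 9 (Cts3, Cts6, Cts7, Cts8, Ctsj, Ctsll3, Ctsm, Ctsq and Ctsr) exceeded the threshold on any array. Their signals ranged from 19.8 to 549, with the highest for Cts8, which had 63.9, 129.9, 376 and 549. Ctsj had 49.5, 276, 222 and 309, and Ctsm had 118, 338, 286 and 20.2. The order of the arrays differed from gene to gene. The limma test likewise called 0 of the 9 after adjustment, and 0 at an unadjusted p under 0.05. Of 6 trophoblast markers listed only Psg16 and Tpbpa were measured, and 0 of these 2 were above background, against 51.6% of all genes. A transcript below the threshold may still be present at a level these probes cannot tell from background.

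**Figure D1:**
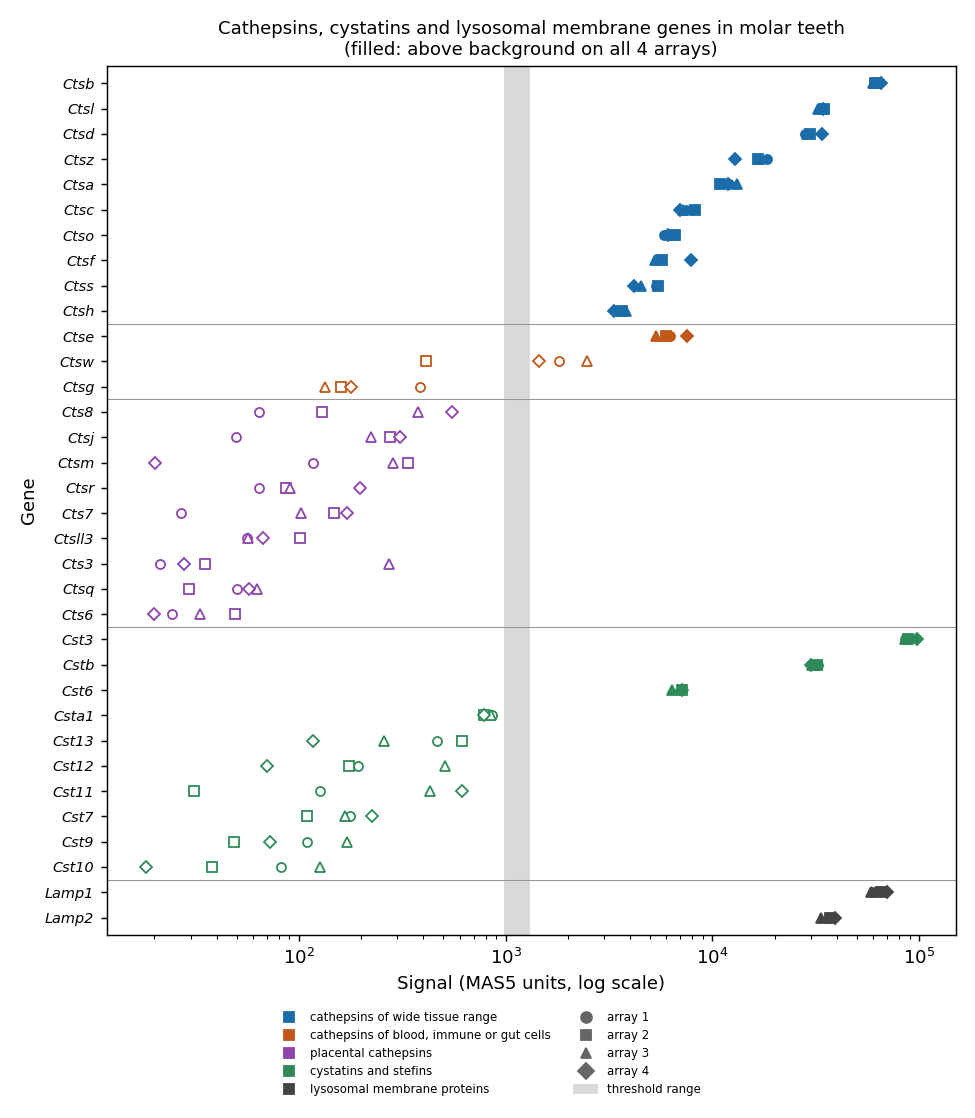
Signal of each cathepsin, cystatin and lysosomal membrane gene on the 4 arrays (log axis, MAS5 units), by class and, within a class, from highest to lowest mean. Filled points mark genes above background on all 4 arrays and the grey band spans the thresholds of 996 to 1295; the 10 cathepsins of wide range lie to the right of it and the 9 placental cathepsins to the left.

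Inhibitors of these proteases were above background for 3 of 10 genes. Cst3 (cystatin C), the secreted inhibitor found in most body fluids, had 85559, 88217, 85178 and 97665. Cstb (stefin B), an inhibitor of the cytosol, had 32397, 32257, 30435 and 29949. Cst6 (cystatin M/E), a secreted inhibitor of cathepsin L and legumain known from skin and other stratified epithelia, had 7037, 7106, 6359 and 7152. The signal of Cst3 was 65.8 to 85.9 times the threshold and exceeded the value of 99.6% of genes, a position that also depends on its probes. Limma gave 6.27 ± 0.13, 4.76 ± 0.12 and 2.58 ± 0.12 above the threshold on the log2 scale for Cst3, Cstb and Cst6, with adjusted p-values of 1.86e-15, 6.27e-15 and 9.01e-12. Genes of oral and cornified epithelium, where Cst6 is also made, were above background for 6 of 7 markers, against 51.6% of all genes. The brightest were Krt4 at 52269 ± 6646, Krt6a at 28453 ± 3061 and Krt13 at 22666 ± 3358. Ivl, at 527 to 1101, was not above background. The summed signal of the 7 markers ranged from 129562 to 149429 over the arrays, and their part in the Cst6 signal was not tested.

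The 7 other inhibitors stayed below the threshold on all 4 arrays. Csta1, of the stefin A family, came closest, with 859, 788, 850.2 and 784, and its values were the least spread of the 7 (SD 39.7). Cst7 (cystatin F), made by immune cells, ranged from 109 to 226. Cystatins known from the male reproductive tract were dim: Cst9 ranged from 48.3 to 170.0, Cst11 from 31.1 to 618, Cst12 from 70.2 to 509 and Cst13 from 117 to 617. Cst10, known in mice from cartilage cells, ranged from 18.1 to 127. Each of these 7 was measured by 1 probe set.

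Genes of the pump's V1 part were above background for 8 of 12. Atp6v1a encodes the subunit that splits ATP and had 17944, 18141, 17998 and 22569, alike on arrays 1 to 3 and higher on array 4. Atp6v1g1, of the peripheral stalk, had 42939, 40466, 37132 and 38765, or 28.7 to 43.1 times the threshold. Atp6v1d, of the central rotor, had 22982, 23779, 22756 and 25738. Those without a sister gene in the set, Atp6v1a, Atp6v1d, Atp6v1f and Atp6v1h, were all above background. Atp6v1f, also of the rotor, had 18803, 17413, 17673 and 18689, and Atp6v1h, a regulatory subunit, had 7112, 6214, 6465 and 5658.

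The V1 subunits B, C, E and G are each encoded by a pair of sister genes here, and in each of the 4 pairs 1 gene was above background and the other was not. With the 75th percentile of the receptor probe sets as threshold this held for subunits B and C, while Atp6v1e2 and Atp6v1g2 were above background like their sisters. For subunit B, which shares the ATP-binding hexamer with A, Atp6v1b2 had 13675, 12264, 14504 and 15662, and Atp6v1b1, the form known from kidney and inner ear, had 394, 675, 378 and 1092. For subunit C, part of the stator, Atp6v1c1 had 13912, 14098, 13762 and 12670.5, and Atp6v1c2 had 146, 323, 118 and 256. The called gene of each pair, B2 and C1, is the one known from most tissues. For subunit E of the peripheral stalk, Atp6v1e1 had 26259, 18194, 27622 and 20461, and Atp6v1e2, known from testis, had 826, 837, 969.8 and 651. For subunit G, Atp6v1g1 passed as above, and Atp6v1g2, known from brain, had 762, 1057, 799 and 768. Atp6v1e1 was lower on arrays 2 and 4 than on arrays 1 and 3, and its log2 SD of 0.29 was the largest among members above background. Sister genes are read by different probes, so each was set against the threshold and not against its sister. Each gene of these pairs that was not above background had 1 probe set. Atp6v1b2 and Atp6v1e1 had 4 and Atp6v1c1 and Atp6v1g1 had 3, and all but Atp6v1c1 had some below the threshold.

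Of the 7 V0 genes, 6 were above background. The a subunit, through which protons cross, has sister genes that place the pump in different compartments. Atp6v0a1 had 10925, 14355, 12547 and 15034. Atp6v0a2, the form known from Golgi and endosomes, had 2816, 2101, 2828 and 3124, or 1.92 to 2.83 times the threshold (limma 1.22 ± 0.15, SE, adjusted p = 1.27e-06). Both were called by every one of their probe sets, 4 for Atp6v0a1 and 3 for Atp6v0a2. Atp6v0a4, known from kidney and inner ear, had 405, 265, 193 and 155 and was below the threshold on all 4 arrays. The remaining form, a3, is encoded by Tcirg1, which is outside the set by its symbol and was looked up after the values were seen. It had 3557 ± 242 and was above background.

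The other V0 genes were all called. Atp6v0d1 links the rotor to the proton-carrying ring and had 17229, 16828, 19938 and 19526. Atp6v0b, a ring subunit, had 13644, 11509, 13158 and 14962. Atp6v0e, a small membrane subunit, had 24523, 28522, 27157 and 31441. Its sister Atp6v0e2, known from brain, had 1517, 1715, 1703 and 1934 and was the called member closest to background, at 1.31 to 1.56 times the threshold, with limma at 0.56 ± 0.16 (SE, adjusted p = 0.00585). Both genes of this pair thus passed. The accessory subunits were bright on every array. Atp6ap1, which takes part in assembling and guiding the pump, had 25746, 23885, 23644 and 26163, and Atp6ap2, also called the prorenin receptor, had 35469, 39693, 36835 and 38939. Their log2 SD was 0.074 each.

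**Figure D2:**
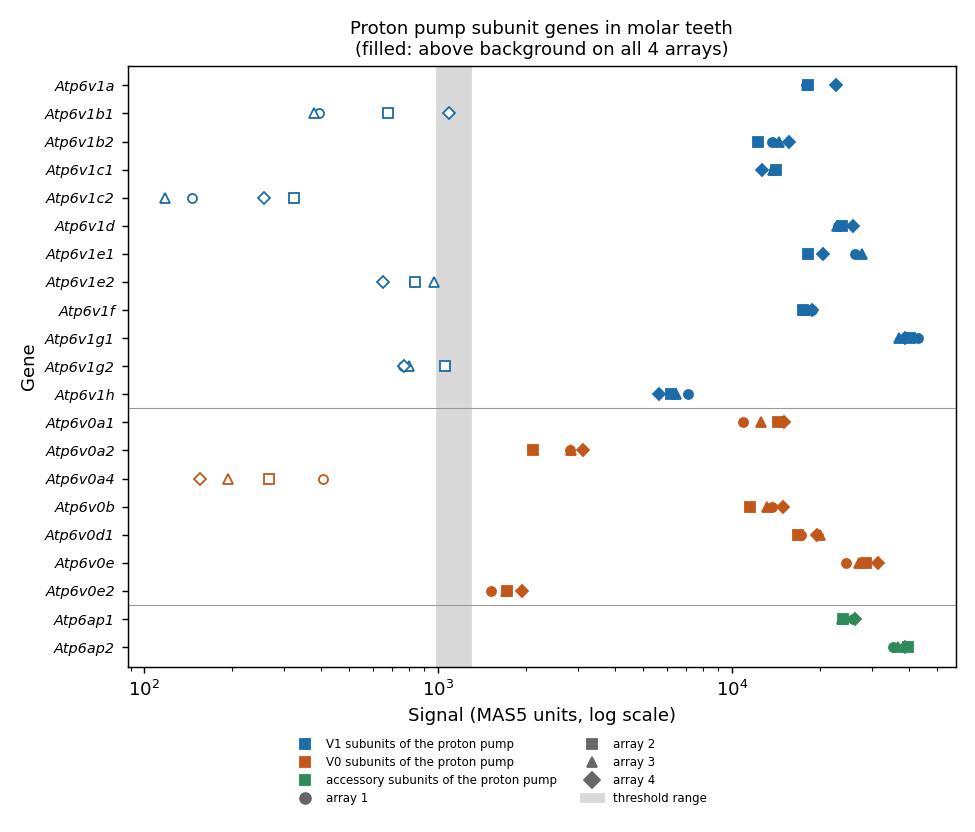
Signal of each proton pump subunit gene on the 4 arrays (log axis, MAS5 units), V1 genes above V0 genes above accessory subunits. Filled points mark genes above background on all 4 arrays and the grey band spans the thresholds; Atp6v1b1, Atp6v1c2, Atp6v1e2, Atp6v1g2 and Atp6v0a4 lie below the threshold of each array.

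Lamp1 and Lamp2 encode heavily glycosylated proteins that line the lysosomal membrane, and Lamp2 also takes part in autophagy. Lamp1 had 59990.2, 65374, 58688 and 69692, and Lamp2 had 36545, 37288, 33689.8 and 39404, which put them at 45.3 to 60.3 times and 26.0 to 36.7 times the threshold. All 4 probe sets of Lamp2 were above background.

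A separate list of 48 other lysosomal genes (hydrolases, their activators and sorting receptors, membrane proteins and the factors Tfeb, Tfe3 and Mitf) was set beside the members. Of 44 measured, 42 (95.5%) were above background, against 51.6% of all genes. The 5 with the highest signal were Laptm4a, a membrane protein of late endosomes (103709 ± 17206, SD, n = 4), Arsb, a sulfatase of dermatan sulfate (65412 ± 2928), Npc2, a carrier of cholesterol (58267 ± 8427), Psap, the precursor of saposins (37128 ± 874), and Tpp1, a tripeptidyl peptidase (22237 ± 1398). The exceptions were Gla (alpha-galactosidase A) and Sgsh, an enzyme of heparan sulfate breakdown, both over the threshold on 3 arrays. Gla had 1449, 1495, 1385 and 673, falling short on array 4, and Sgsh had 2096, 1658, 1120.0 and 1890.3, falling short on array 3. Sgsh passed the limma test (adjusted p = 0.0368) and Gla did not (adjusted p = 1).

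Each member's value came from its brightest probe set, so the others were examined too. Of the 32 members above background 22 had several probe sets, and in 12 of these every probe set was above background. In the other 10 at least 1 probe set was not. Ctsb had 5, of which the brightest had 62908, 61008, 59777 and 65702 and the next 57767, 54813, 58204 and 68792, while the dimmest ranged from 497 to 604. For Ctsl the second probe set ranged from 69.8 to 139.9, far below the first, and Ctsl was not above background when probe sets with a suffix, such as the first, were left out. Ctsc had 2 dim probe sets, ranging from 118 to 535 and from 370.1 to 878. Atp6v1e1 had 4, of which 2 were above background, the second with 5330.1, 3612, 5526 and 4600.1. This second probe set was, like the first, higher on arrays 1 and 3 than on arrays 2 and 4. The second probe set of Ctsf, at 41.7 to 338, was below the threshold on all 4 arrays. Of the 23 members not above background 2 had several probe sets, and none of these exceeded the threshold on all 4 arrays.

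**Figure D3:**
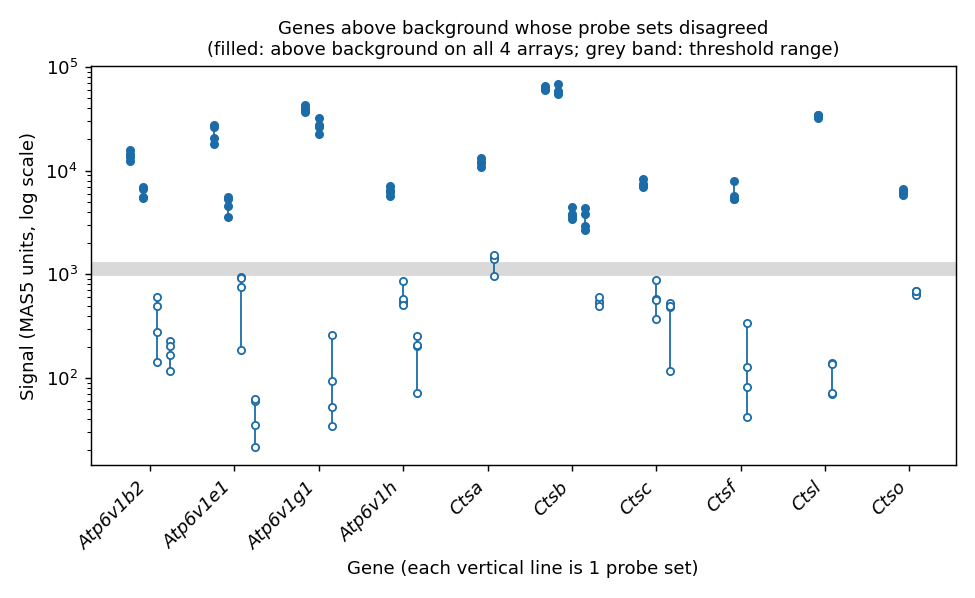
Signals on the 4 arrays (log axis, MAS5 units) for every probe set of the 10 members above background whose probe sets disagreed; each vertical line joins the arrays of 1 probe set, sorted from bright to dim within a gene. Filled points mark probe sets above background on all 4 arrays and the grey band spans the thresholds; for Ctsl 1 probe set lies far above the band and 1 far below.

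Across the 32 members above background, which are not independent replicates, Pearson's r of log2 signals between 2 arrays lay between 0.985 and 0.996, against 0.971 to 0.980 across all genes above background. Both values also reflect the wide range of brightness between genes. The log2 signal of a member had a median SD of 0.11, against 0.16 for all genes above background and 0.17 for the other lysosomal genes above it. Dim MAS5 values are noisier, so these SDs also depend on how bright the genes of a set are, for which no adjustment was made. Array 4 was the highest for 17 of the 32 and the lowest for 7. The median deviation of the members from their own mean was 0.076 on array 4, against -0.0023, 0.0016 and -0.042 on arrays 1, 2 and 3 on the log2 scale, and over all genes above background it was 0.025 on array 4. After quantile normalisation, which gives every array the same distribution of signals, the members' median deviation on array 4 was 0.023 and 14 of 32 were highest there. Without array 4, the same 32 members were above background.

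**Figure D4:**
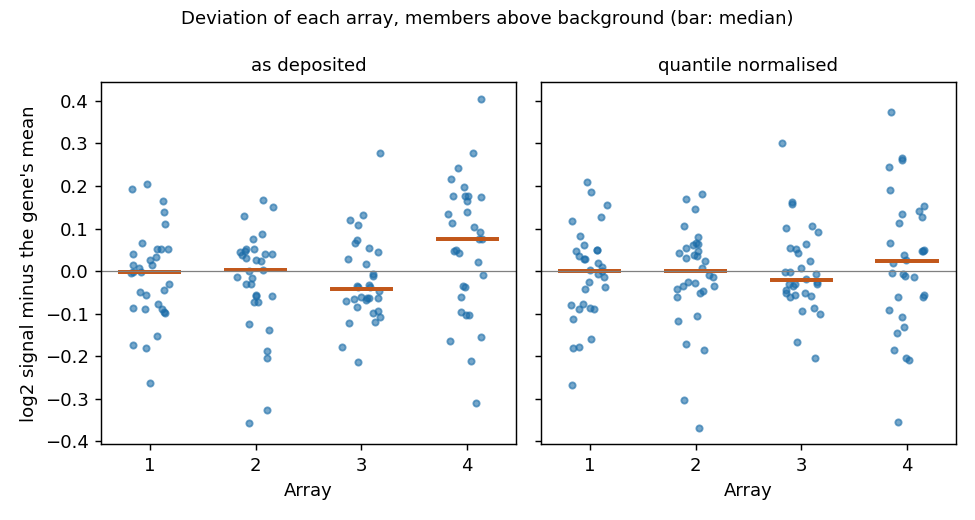
Deviation of the log2 signal of each of the 32 members above background from the gene's mean over the 4 arrays, by array, as deposited (left) and after quantile normalisation (right); bars are medians. The median on array 4 was 0.076 as deposited and 0.023 after quantile normalisation.

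Markers of cells known for high lysosomal activity were read against the 51.6% of all genes above background. Macrophage genes were above background for 10 of 11 measured markers, with Csf1r at 20413 ± 2425, Lyz2 at 6475 ± 814 and Mrc1 at 5689 ± 332, and their summed signal ranged from 51762 to 57060 over the arrays. Osteoclast genes were above background for 5 of 11 markers, a share not over that of all genes (summed signal 52114 to 62805), with Ctsk at 22447 ± 3408, Mmp9 at 14644 ± 1453 and Acp5 at 10990 ± 2007. Of the osteoclast list Calcr, Dcstamp, Ocstamp, Oscar, Itgb3 and Tnfrsf11a were not above background. Mast cell genes gave 1 of 6, below the share of all genes, Kit at 8964 ± 1641, which other cells also express, with a summed signal of 10613 to 14295. The ameloblast and odontoblast lists had summed signals of 552378 to 746108 and 446946 to 633898. A sum adds probe sets that differ in how well they bind, so sums of different lists are not read as amounts of cells. Cd68 stood in both the macrophage list and that of other lysosomal genes. Which of these cells gave the members' signals was not tested.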

How the data were processed

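RNA from 1 pool of mouse molar teeth was measured on 4 one-colour arrays. The authors made the values with MAS5, per the submitters' processing notes. Neither version nor settings of that software were given in the sources used here. All deposited intensity values are linear, cover 45101 probe sets and had been scaled by the authors to a common level, since each array's mean, trimmed of 2% of probe sets at either end, was 2500. MAS5 subtracts mismatch signal, so dim values are noisy, and its linear scaling leaves differences that depend on brightness. The number of arrays limits the precision.

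Platform annotation named 1 gene for 34958 probe sets and several for 932, which were not used. All 55 members matched a RefSeq gene by ID. Where a gene had several probe sets, the one with the highest mean log2 signal gave its value. Tests used limma 3.58.1 in R 4.3.3 with a mean-variance trend, one-sided, and were tested on simulated data; the threshold was treated as fixed. Python 3.11.15 was used for the rest. The members and lists were chosen with earlier results of these data known, and the 5 promoter motifs after the values were seen. Named are all members, per list the genes of highest signal, and other lysosomal genes not above background. Some further genes of the lysosomal list that were above background were picked for a promoter motif or a known role. Alternatives were another threshold, number of arrays, test, scaling, choice of probe sets, and leaving out each array. The control tissues named in the design were not analysed here.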

Additional observations from a re-analysis of the deposited data

Results flagged for a closer look

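A gap test was applied to 65 sets of 4 array values (the log2 signals of each member and the medians of the whole set, of its 8 classes and of the other lysosomal genes), and in 3 of them a single array stood off from the rest. Chance gives about 1 in 20, or 3.25 of 65. Atp6v1a was higher on array 4, at 14.46 on the log2 scale, than on the others (14.13 to 14.15). Its second probe set had 14204 on array 4 and 13350.2, 12342 and 12919 on arrays 1, 2 and 3. Cst6 was lower on array 3, at 12.63, than on the others (12.78 to 12.80). Atp6v1g2, not above background, was higher on array 2, at 10.05, than on the others (9.57 to 9.64).

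Probe sets that name several genes were outside the gene counts. The one for Cstdc5 and Stfa1, genes of the stefin A family, had 10770, 9082, 9869 and 7639 on arrays 1 to 4, a mean of 9340 with an SD of 1327 (n = 4), above the threshold on all 4 arrays, whereas Csta1 of the same family was not above background. The probe set for Lamp3, a relative of Lamp1, and Ppid, a cyclophilin, had a mean of 6404 with an SD of 712. The probe set for Cstdc4 and Csta2 had 231 with an SD of 52.1 and exceeded the threshold on 0 arrays. Which of the genes named gave the signal was not tested.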

How the results depend on the processing

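Of 649 calls of single members under the alternatives, 8 changed, in 7 genes. When the 75th percentile of the receptor probe sets served as threshold, Atp6v1e2, Atp6v1g2 and Csta1 were also above background, which made 35 of 55 members, against 65.3% of all genes. By the median of a gene's probe sets Atp6v1h and Ctsc were not above background, and with probe sets free of the suffixes _s_at, _x_at and _a_at, which mark probes that may match several transcripts (for _a_at, transcripts of 1 gene), Ctsl was not. These choices gave 9 of 10 and 7 of 8 measured cathepsins of wide range. That choice left 11 members without a probe set, so the accessory and the lysosomal membrane class each had 1 gene, and 1 was above background. Ctsw was above background when 3 of 4 arrays sufficed and without array 2, which made the blood, immune and gut cathepsins 2 of 3. Leaving out 1 array gave 32 to 33 members above background, and 1 to 2 in that class. The 99th percentile, the limma test, quantile normalisation and the brightest probe set alone changed no call of a member. The members' median log2 signal of 12.55 was 11.13 without probe sets of these suffixes (10.33 over all genes), 11.40 by the median probe set (10.08 over all genes), and 12.41 to 12.59 when 1 array was left out. The limma test called 31 members against the 99th and 36 against the 75th percentile. Of the other lysosomal genes, 40 of 44 were above background with the 99th percentile (90.9%, against 48.2% of all genes). By the median probe set it was 37 of 44 (84.1%, against 42.7%). Without probe sets of these suffixes it was 33 of 38 (86.8%, against 46.6%). No paired analysis was possible because there is 1 group. With 4 arrays of 1 pool, differences between animals or ages are out of reach.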

Other observations

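Transcription factors known to act on lysosomal genes were looked up after the values of the members had been seen. Tfeb had signals of 2271, 2169, 2145 and 2328, Tfe3 had 5488, 7184, 5643 and 6761 and Mitf had 1850.3, 2164, 2556 and 2442. All 3 were above background on the 4 arrays, Tfeb at 1.66 to 2.28 and Mitf at 1.86 to 1.97 times the threshold. Only 1 of the 2 probe sets of Mitf was above background. The 3 factors are on the list of other lysosomal genes, of which 95.5% were above background, against 51.6% of all genes. Atp6v0d2, the osteoclast form of the d subunit, which was left out of the set, had 1599, 2108, 1616 and 1507 and was above background as well. Lgmn (legumain), the asparagine-specific protease that Cst6 inhibits, had 5942, 5474, 5213 and 6508 and was above background, as were Igf2r and M6pr, the receptors that carry newly made hydrolases to lysosomes, at 8915 ± 811 and 18708 ± 546 (SD, n = 4).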
